A study of Homo sapiens with 9 samples.

Results

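The cytosolic ribosomal protein genes were followed with and without osteoblasts in PC3, a cell line grown from a bone metastasis of human prostate cancer. A gene was taken as a member when a probe set carried its symbol alone and that symbol was RPL or RPS with a number, a paralog name such as RPL22L1, or a stalk protein name such as RPLP1. Pseudogenes and the RPS6K kinases were left out. The arrays held 61 such genes on 122 probe sets, of 19775 genes and 54675 probe sets in all. A filter on low values kept 59 genes and 112 probe sets, and RPL3L and RPL36A fell below it. Each gene was first read from its brightest probe set, by the mean of the 9 arrays, and then from the others as well.

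Total RNA was measured after 48 h on 9 Affymetrix human expression arrays. PC3 cells alone (untreated PC3) had 2 arrays, and those co-cultured with osteoblasts of Sost knockout mice (OB SostKO) also had 2. Wild type osteoblasts were combined with recombinant human DKK1 (OB WT + rhDKK1, 2 arrays) or recombinant human SOST (OB WT + rhSOST, 3 arrays), each protein at 100 ng/ml. DKK1 and sclerostin, the product of SOST, are secreted proteins that bind Wnt co-receptors. The osteoblasts were primary cells from the skull bones of newborn wild type or Sost knockout pups. In the study's invasion co-cultures they had no physical contact with the PC3 cells, and the layout used for the arrays is not stated. The wild type strain is named C57BL/6J in the study's methods and C57BL/6N in its results. No array of PC3 cells with wild type osteoblasts alone was analysed here, so the osteoblasts and the added protein cannot be told apart in those groups. The 3 comparisons with untreated PC3 cells use the same 2 untreated arrays. The deposited values are log2 intensities from RMA, which corrects background, gives every array the same distribution and summarizes the probes of a probe set. In such bulk RNA, fewer cells and less RNA per cell cannot be told apart, and a change in total ribosomal RNA or protein is not seen at all.

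Ribosomal proteins make up the large and small subunits of the ribosome together with ribosomal RNA. Their mRNAs are among the most abundant in growing cells and begin with a C followed by an uninterrupted run of pyrimidines, the 5′ terminal oligopyrimidine tract, through which mTOR signaling and the RNA-binding protein LARP1 set their translation and stability. Because of that control, the output of these genes is adjusted largely on mRNAs that are already made. MYC raises transcription of ribosomal protein and ribosome assembly genes, and unassembled RPL5 and RPL11 restrain MDM2, the ligase of p53, a protein that PC3 cells lack. Some members have paralogs that can stand in for them in the ribosome, such as RPL22L1 for RPL22 and RPL39L for RPL39.

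The start of the gene shows a feature that most members share, and that some canonical genes and some paralogs lack. RefSeq promoters on GRCh38.p14 were found for 52 of the 60 members other than RPS4Y1. Each window below holds 14 bases before and 16 bases from the annotated start, on the strand of the gene, with the stretch of C and T next to the start in capitals. RPS24 and RPL22 are shown because their probe sets disagreed, RPL22L1 because its level changed, RPL38, RPL14 and RPL37A because they had dim probe sets that varied between arrays, and the others as pairs of a gene and its paralog or as paralogs alone.
RPS24 (chr10:78033849-78033878, plus strand): ggcgaatcgtggTTCTCTTTTCCTCCTTgg
RPL22 (chr1:6199580-6199609, minus strand): agttcgctcaCCTCCCTTTCTaactccgct
RPL22L1 (chr3:170870180-170870209, minus strand): gcggccgtagCTTCCTCTCTgctctcgcgg
RPL38 (chr17:74203664-74203693, plus strand): acggaagtctcgTTCTTTTTCgtccttttc
RPL14 (chr3:40457325-40457354, plus strand): ggcgggTCTTCTTCCTTCTCgcctaacgcc
RPL37A (chr2:216498830-216498859, plus strand): caccgcgTCTCTTCCTTTCTgggctcggac
RPS27 (chr1:153990748-153990777, plus strand): tttccgctttcgCTCCTTTCCggcggtgac
RPS27L (chr15:63157462-63157491, minus strand): agttgatgccgagCgcagatcgcttgcagc
RPL26L1 (chr5:172958866-172958895, plus strand): gcggggcggcggCCacaaacccgcaggcac
RPL7L1 (chr6:42879602-42879631, plus strand): ggaagtgcggcgCCgtagctaggagcggac

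A stretch of at least 5 C or T that reached within 3 bases of the start stood at 44 of the 52 members (84.6%) and at 33.6% of 15773 other protein-coding genes, taking the longest stretch where RefSeq lists several starts. The median stretch was 11 bases in members and 3 in the other genes. The letters CTTTC occurred between 10 bases before and 20 bases after the start at 27 members (51.9%) and at 5.56% of the other genes, and on the opposite strand at 1 member (1.92%) and at 3.68% of the others. The 8 members with a shorter stretch were RPL10L, RPL26L1, RPL27, RPL7L1, RPL9, RPS15, RPS27L and RPS29. RPL22L1 carried a stretch of 10 bases and RPL22 of 11. These are annotated starts, and the starts used in PC3 cells were not measured.

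The members filled the top of the scale. The probe set that stood for the gene lay above log2 12 at 52 of 59 genes, and 50 exceeded the 99th percentile of the array, at log2 12.77 to 12.79, on all 9 arrays. RPS24, a small subunit protein, was the highest with 14.60, close to the array maxima of 14.58 to 14.63. RPL41, the smallest protein of the large subunit, followed with 14.44, and RPL7, also of the large subunit, with 14.43. The median over the members was 13.80. It was 13.70 for the 37 large subunit genes and 13.97 for the 22 small subunit genes. Probe sets differ in how they bind RNA, so these values order probe sets and not transcripts.

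**Figure D1:**
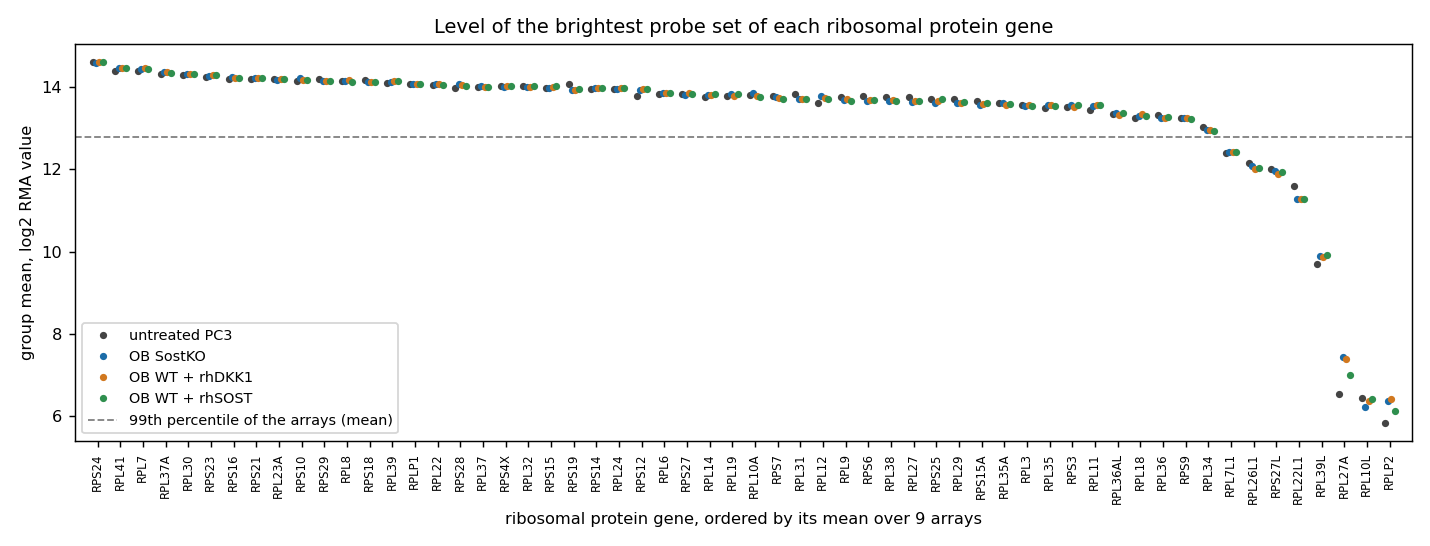
Group means of the log2 RMA value (vertical axis) for the brightest probe set of each kept ribosomal protein gene except RPS4Y1, ordered along the horizontal axis by the mean over 9 arrays. The colors stand for the 4 groups, which overlie each other at most genes, and the dashed line is the 99th percentile of the arrays, which 50 of the 59 members exceeded on every array.

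Of the 468 probe sets that exceeded the 99th percentile on every array, 68 belonged to members and 43 more listed a ribosomal protein symbol beside other symbols, together 23.7%. RMA fixes the distribution of the top values, so a shift common to the brightest probe sets would not be seen in these values. The mean over the 52 bright members lay between 13.79 and 13.83 on the 9 arrays. Of the 59 brightest probe sets, 16 carry the suffix x_at and 29 the suffix s_at, which Affymetrix gives to probes that can bind further sequences or several transcripts. Ribosomal protein genes have many processed pseudogenes, and the members on such probe sets are uncertain to that extent.

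The remaining 7 members stood at or below log2 12. They were the paralogs RPS27L (11.95), RPL22L1 (11.36), RPL39L (9.85) and RPL10L (6.37), the Y-linked RPS4Y1, and RPL27A (7.09) and RPLP2 (6.19). The last pair stood on dim probe sets because their bright ones also list a small nucleolar RNA. Those bright probe sets read 13.9 for RPL27A and 13.7 for RPLP2.

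The epithelial markers KRT8, KRT18, KRT19 and EPCAM were all kept, at 11.98 for KRT8, 12.56 for KRT19, 13.23 for EPCAM and 13.30 for KRT18. The prostate kallikreins KLK2 and KLK3 passed the filter at 5.15 and 6.97. Of 8 osteoblast markers, 4 were kept, at 4.80 for ALPL, 5.05 for IBSP, 8.96 for RUNX2 and 9.15 for COL1A1, and none of the genes named here was called in a comparison with untreated PC3 cells. The poly-A controls, which are spiked in before labelling, read 11.49 ± 0.46 (SD, n = 2) on the untreated arrays and 6.79 ± 0.30 (n = 7) on the co-culture arrays (two-sided exact permutation p = 0.0278, the smallest that 2 against 7 arrays allow). The hybridization controls read 11.01 ± 0.48 on untreated and 10.44 ± 0.12 on co-culture arrays (exact permutation p = 0.0278). The 3′ minus 5′ difference of ACTB, a measure of RNA and labelling quality, was 0.69 ± 0.27 on untreated and 1.38 ± 0.33 on co-culture arrays (exact permutation p = 0.0278), and that of GAPDH was 0.19 ± 0.07 and 0.20 ± 0.10 (exact permutation p = 0.917). These differences move with every comparison against untreated PC3 cells, and their part in the results was not tested. Several pairs of arrays from different co-cultures differed by only 0.12 to 0.19 (root mean square, log2), less than the 0.20 to 0.37 between arrays of 1 group. The closest were the second OB SostKO array and the first rhDKK1 array, at 0.12. The third rhSOST array was 0.29 or more from every other array.

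Against untreated PC3 cells, 1 of the 59 ribosomal protein genes was called in 1 of the 3 comparisons. These are changes relative to the distribution that RMA gives each array, in which a shift shared by the brightest probe sets cannot show. With OB SostKO, 0 of 59 members were higher and 0 were lower at an adjusted p under 0.05 (limma, Benjamini-Hochberg over 14863 genes), against 2.07% of all genes higher and 1.65% lower. With OB WT + rhDKK1 the counts were again 0 and 0, against 2.5% and 1.76%. With OB WT + rhSOST, 0 members were higher, against 4.87%, and 1 was lower, RPL22L1, against 2.1%. Without adjustment, 2, 4 and 3 members had a p under 0.05 in these comparisons (3.39%, 6.78% and 5.08%), against 20.7%, 21.3% and 23.6% of all genes. The methods' paired t-test, on 2 pairs, called 0 members after adjustment, and 0, 0 and 2 of all genes. A one-way analysis of variance with Tukey's comparisons called 0 members, and 1, 1 and 9 of all genes, so neither count of 0 says anything about the members.

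The size of the differences was read on the same normalized scale. For the members the median log2 fold change was 0.01 under OB SostKO, 0.01 under rhDKK1 and 0.0008 under rhSOST, and that of all genes was -0.01, -0.01 and 0.02. The median size without regard to sign was 0.05 in each comparison for members and 0.12 to 0.13 for all genes. All 52 members above log2 12 had a log2 fold change under 0.2 in size and a 95% interval within 0.5 of 0 in each comparison. Of the 686 other genes above log2 12, a comparison added after the values had been seen, 84.7%, 85.6% and 91% had a log2 fold change under 0.2 in size, and 92.9%, 93% and 95.6% had such an interval. The median residual SD between arrays of a group was 0.04 for the bright members, 0.06 for these other genes and 0.11 for all genes. The bright members stood higher on the scale than the other bright genes, with a median of 13.84 against 12.61, and RMA holds the top of the scale alike on every array. How much of their small differences and small spread comes from this was not tested.

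Among the large subunit genes, RPL11, which binds MDM2 when it is not in a ribosome, read 13.44 and 13.42 in untreated PC3 cells, 13.55 and 13.54 with OB SostKO, 13.55 and 13.56 with rhDKK1 and 13.60, 13.52 and 13.58 with rhSOST. Both untreated arrays were below all co-culture arrays, and the difference with rhSOST was 0.13 (95% interval -0.01 to 0.28, limma adjusted p = 0.231). RPL31 read 13.80 and 13.84 untreated, 13.72 and 13.72 with OB SostKO, 13.72 and 13.68 with rhDKK1 and 13.74, 13.70 and 13.72 with rhSOST. It ran the other way, also without overlap, and its difference with rhDKK1 was -0.12 (-0.27 to 0.03, adjusted p = 0.347). RPL12, at the base of the stalk, gave 13.58 and 13.66 untreated and 13.71 to 13.86 on the 7 co-culture arrays, with a difference of 0.17 for OB SostKO (adjusted p = 0.251). RPL11, RPL31 and RPL12, like RPS12, RPS19 and RPL39L below, were named for their small p-values in these same data. The share of all genes whose untreated arrays stand apart in this way was not counted.

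The stalk protein RPLP1 was the steadiest of the named members, with 14.08 on both untreated arrays and 14.07 to 14.10 on the co-culture arrays. Its partner RPLP2, on the dim probe set, read 6.08 and 5.62 untreated, 6.48 and 6.27 with OB SostKO, 6.49 and 6.35 with rhDKK1 and 6.54, 6.18 and 5.70 with rhSOST. The third rhSOST array lay between the untreated arrays and the other 6 co-culture arrays above both, and no difference passed (adjusted p = 0.264, 0.224 and 0.474).

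Of the small subunit genes, RPS12 had the largest differences, 0.15, 0.18 and 0.17 for OB SostKO, rhDKK1 and rhSOST. It read 13.81 and 13.73 untreated, 13.94 and 13.91 with OB SostKO, 13.93 and 13.96 with rhDKK1 and 13.93, 13.93 and 13.96 with rhSOST. Both untreated arrays lay below all co-culture arrays, and none of the limma adjusted p-values passed (0.27, 0.195 and 0.15). RPS19, the gene most often altered in Diamond-Blackfan anemia, read 14.10 and 14.07 untreated, 13.99 and 13.89 with OB SostKO, 13.95 and 13.93 with rhDKK1 and 13.91, 13.97 and 13.96 with rhSOST. Its differences were -0.15, -0.14 and -0.14 (adjusted p = 0.291, 0.285 and 0.249). RPS6, the substrate of the S6 kinases, read 13.74 and 13.82 untreated and 13.63 to 13.72 on the co-culture arrays, with differences of -0.12, -0.10 and -0.09 (adjusted p = 0.389, 0.462 and 0.433).

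The paralogs included the single member that was called. RPL22L1, the paralog of the RNA-binding large subunit protein RPL22, read 11.63 and 11.58 in untreated PC3 cells, 11.31 and 11.26 with OB SostKO, 11.28 and 11.28 with rhDKK1 and 11.37, 11.27 and 11.23 with rhSOST. All 7 co-culture arrays lay below both untreated arrays. The log2 fold change was -0.31 with rhSOST, a level of 0.80 of that in untreated PC3 cells (95% interval -0.47 to -0.16, limma adjusted p = 0.0329). It was -0.32 with OB SostKO (adjusted p = 0.0576) and -0.32 with rhDKK1 (adjusted p = 0.0512), so the 3 differences were close in size while 1 of them passed. When each array was left out in turn, the call with rhSOST was lost without 6 of the 9. These were untreated arrays 1 and 2, rhDKK1 arrays 1 and 2 and rhSOST arrays 2 and 3. Over all 9 such settings the log2 fold changes with rhSOST were -0.35 to -0.28. Without rhSOST array 3 the pattern of calls turned over, since OB SostKO (adjusted p = 0.0486) and rhDKK1 (0.0463) then passed and rhSOST did not (0.0628). Tested among probe sets, its adjusted p was 0.0559.

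RPL22 itself stood on a probe set at 14.06, and 3 of its 4 further probe sets differed from that probe set by at most 0.11 in log2 fold change. The fourth, 221726_at, read 12.10 and 11.98 untreated, 12.29 and 12.34 with OB SostKO, 12.31 and 12.33 with rhDKK1 and 12.35, 12.39 and 12.25 with rhSOST. Every co-culture array was above both untreated arrays at this probe set, opposite to RPL22L1. Its differences were 0.28, 0.28 and 0.29 and did not pass (limma adjusted p over probe sets = 0.134, 0.132 and 0.0756). RPL39L, the paralog of a protein lining the exit tunnel, read 9.68 and 9.71 untreated, 9.90 and 9.88 with OB SostKO, 9.89 and 9.88 with rhDKK1 and 9.95, 9.90 and 9.88 with rhSOST. Both untreated arrays lay below all co-culture arrays here too, with differences of 0.19, 0.18 and 0.21 (adjusted p = 0.157, 0.167 and 0.0818).

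The other paralogs had smaller differences relative to their spread. RPL26L1 read 12.13 and 12.18 untreated and 11.91 to 12.12 on the co-culture arrays, with -0.15 for rhDKK1 (adjusted p = 0.355). RPS27L, a p53 target in other cells, read 12.03 and 11.99 untreated and 11.84 to 12.01 in co-culture, with -0.13 for rhDKK1 (adjusted p = 0.399). RPL36AL, RPL7L1 and RPS4X had log2 fold changes of 0.03 or less in size in each comparison. RPL10L, at 6.37, read 6.59 and 6.31 untreated and 6.41 and 6.04 with OB SostKO, a difference of -0.23 (limma adjusted p = 0.407).

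**Figure D2:**
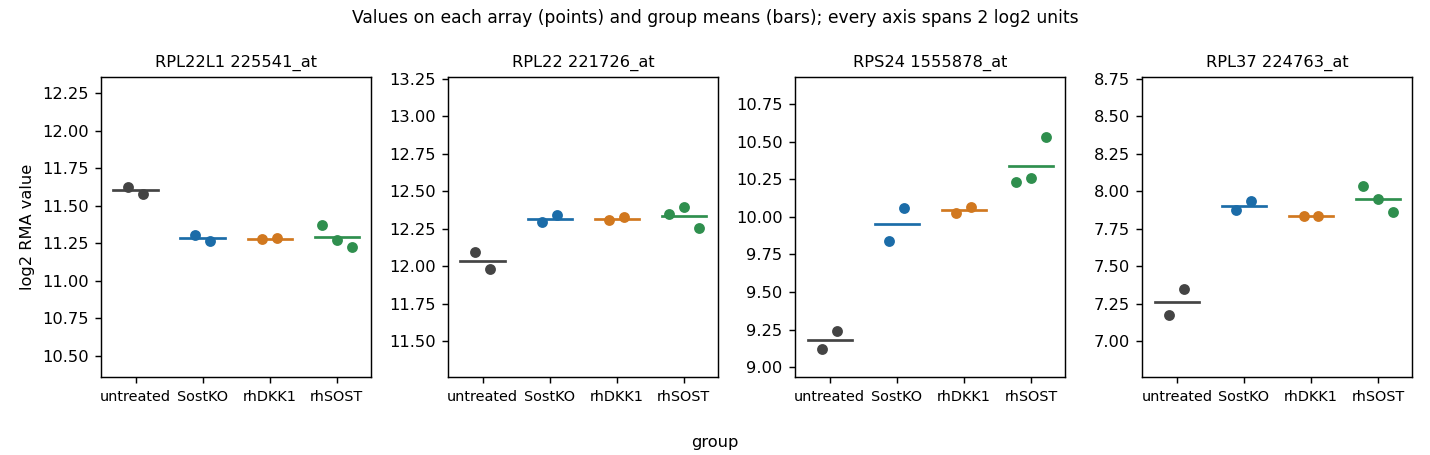
Log2 RMA value on each array (points) with group means (horizontal bars) for 4 probe sets in untreated PC3 cells and the 3 co-cultures. RPL22L1 lay lower and the probe sets of RPL22, RPS24 and RPL37 lay higher on all 7 co-culture arrays than on the 2 untreated arrays, by 0.28 to 1.16 log2 units on average.

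A gene with several probe sets gave further readings of its RNA. There were 53 further probe sets in 31 genes, 21 above log2 12 and 32 at or below it. At 29 of them the log2 fold change differed from that of the brightest probe set by under 0.2 in every comparison, and at 5 it differed by 1 or more in at least 1 comparison. These 5 were 2 probe sets of RPL38 and 1 each of RPL14, RPS24 and RPL37A. All were far dimmer than the brightest probe set of their gene, at log2 6.92 to 9.93 against 13.69 to 14.60.

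Tested among all 33970 kept probe sets, 2 of the 112 member probe sets rose in each comparison. In the OB SostKO comparison 0.901% of all kept probe sets were called higher, in that of rhDKK1 1.03% and in that of rhSOST 2.66%. The 2 that rose were the same probe sets each time, RPS24 1555878_at and RPL37 224763_at, in comparisons that share the untreated arrays.

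RPS24 1555878_at read 9.12 and 9.24 in untreated PC3 cells, 9.84 and 10.06 with OB SostKO, 10.03 and 10.07 with rhDKK1 and 10.23, 10.26 and 10.53 with rhSOST. The 3 co-cultures were above the untreated cells without overlap, and the rhSOST arrays were the highest of all. The log2 fold changes were 0.77 (SE 0.12, limma adjusted p = 0.0344), 0.86 (0.12, adjusted p = 0.0213) and 1.16 (0.11, adjusted p = 0.00454). Over the same arrays the brightest RPS24 probe set lay between 14.58 and 14.63. RPS24 is known for alternative splicing of short exons at its 3′ end, and which transcript the dim probe set reads was not determined here. The difference between OB SostKO and rhSOST at this probe set was -0.39 (95% interval -0.65 to -0.13) and did not pass (adjusted p = 0.843).

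RPL37 224763_at read 7.17 and 7.35 untreated, 7.87 and 7.93 with OB SostKO, 7.83 and 7.83 with rhDKK1 and 8.04, 7.95 and 7.86 with rhSOST. Again both untreated arrays lay below all co-culture arrays. The log2 fold changes were 0.64 (SE 0.09, limma adjusted p = 0.0243), 0.57 (0.09, adjusted p = 0.0297) and 0.69 (0.09, adjusted p = 0.0089). The brightest RPL37 probe set, at 14.02, and 224767_at, at 7.68, had log2 fold changes of 0.05 or less in size. The dimmest, 224766_at, read 5.91 and 6.58 untreated, 6.75 and 7.07 with OB SostKO, 6.98 and 6.80 with rhDKK1 and 6.93, 6.72 and 5.68 with rhSOST. It lay above both untreated arrays on all but the third rhSOST array, with differences of 0.67, 0.65 and 0.20 that did not pass (limma adjusted p = 0.401, 0.411 and 0.81). Leaving out untreated array 1 ended both calls in all 3 comparisons, with an adjusted p of 0.0531 for RPS24 and 0.08 for RPL37 with rhSOST, where it was the only single array to do so. For OB SostKO the RPS24 call was lost without any of 8 arrays (all but rhSOST array 3) and the RPL37 call without any of 7 (all but rhSOST arrays 1 and 3). For rhDKK1 each was lost without any of the same 5 (both untreated arrays, both rhDKK1 arrays and rhSOST array 2), and the adjusted p-values over all of these settings reached at most 0.197.

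**Figure D3:**
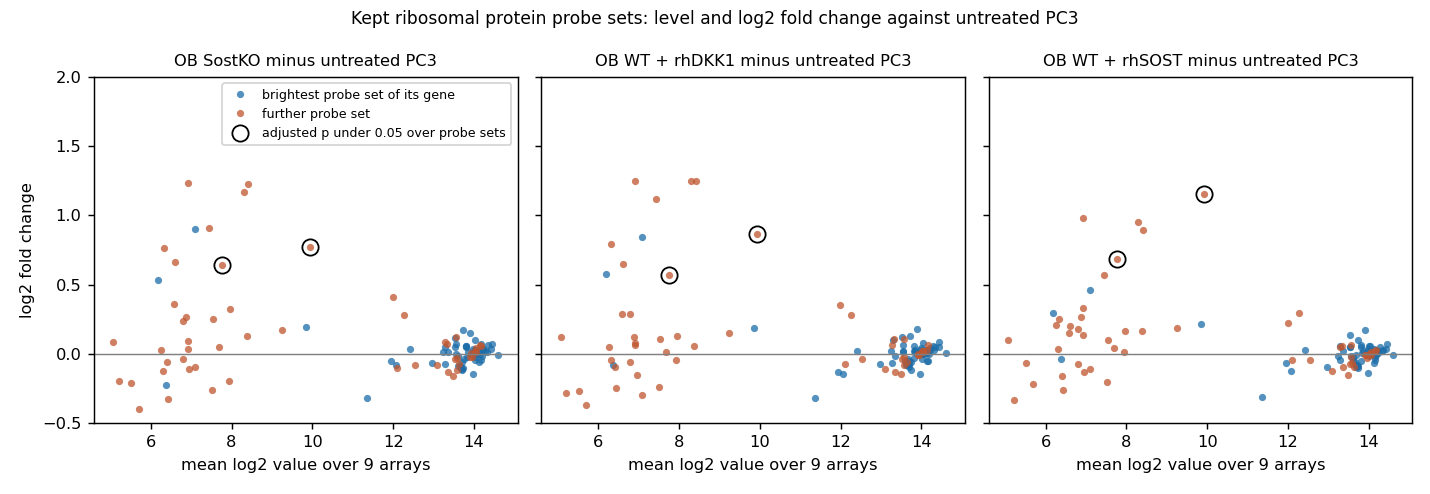
Log2 fold change against untreated PC3 (vertical axis) and mean log2 value over 9 arrays (horizontal axis) for the kept ribosomal protein probe sets other than that of RPS4Y1, with 1 panel for each co-culture. Blue points are the brightest probe set of a gene, orange points further probe sets, and circles mark an adjusted p under 0.05. The points above log2 12 lie close to 0 and those at 5 to 10 spread widely, with 2 circled probe sets, RPS24 and RPL37, in each panel.

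RPL38 is a large subunit protein known from a mouse mutant with defects of the skeleton. Its probe set 202028_s_at read 8.18 and 6.95 untreated, 8.93 and 8.65 with OB SostKO, 8.65 and 8.98 with rhDKK1 and 8.80, 8.69 and 7.90 with rhSOST. The differences were 1.22, 1.25 and 0.90 log2 units and did not pass (limma adjusted p = 0.174, 0.164 and 0.23). Untreated array 2 was the lowest, and rhSOST array 3 lay below untreated array 1. The second RPL38 probe set, 221943_x_at, had the same 2 low arrays, 6.74 for untreated array 2 and 7.74 for rhSOST array 3, against 8.14 to 8.85 on the others. The brightest RPL38 probe set read 13.59 to 13.78 on all arrays. Without both low arrays, a setting chosen after the values had been seen, the differences at 202028_s_at were 0.61, 0.63 and 0.56.

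The same 2 arrays were low elsewhere among dim member probe sets. RPL37A 214041_x_at read 7.32 and 6.28 untreated, 7.39 and 8.03 with OB SostKO, 8.08 and 7.76 with rhDKK1 and 8.45, 7.55 and 6.11 with rhSOST. RPS10 214001_x_at read 6.29 and 5.51 untreated and 6.79, 6.29 and 5.36 with rhSOST, and 6.59 to 6.79 on the other co-culture arrays. RPL27A 212044_s_at read 7.18 and 5.92 untreated, 7.74 and 7.17 with OB SostKO, 7.27 and 7.53 with rhDKK1 and 7.56, 7.10 and 6.38 with rhSOST. At each of these, untreated array 2 was more than 0.5 below untreated array 1 and rhSOST array 3 more than 0.5 below the other rhSOST arrays.

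That double dip was seen at 5 of 38 member probe sets at or below log2 12 (13.2%), RPS4Y1 not counted, and at 60 of all 32786 such probe sets (0.183%). It was chosen after the values had been seen, 2 of the 5 probe sets belong to RPL38, and it is given without a test. None of the 15 dim probe sets that list a ribosomal protein symbol beside others showed it. The 3′ minus 5′ difference of ACTB was 0.88 on untreated array 2 and 1.32 on rhSOST array 3, within the range of 0.50 to 2.06 over the arrays, and GAPDH gave 0.24 and 0.42 against 0.12 to 0.21 on the others. The part of RNA quality in these values was not tested.

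RPL14 219138_at read 6.34 and 5.73 untreated, 7.57 and 6.98 with OB SostKO, 7.19 and 7.38 with rhDKK1 and 7.40, 7.03 and 6.62 with rhSOST. Here all co-culture arrays were above both untreated arrays, with differences of 1.24, 1.25 and 0.98 log2 units (SE 0.30, 0.30 and 0.27, limma adjusted p = 0.0864, 0.0823 and 0.0936). Without rhSOST array 3 each of the 3 passed, with adjusted p-values of 0.0449, 0.0453 and 0.0472. The brightest RPL14 probe set lay between 13.75 and 13.87 on all arrays.

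**Figure D4:**
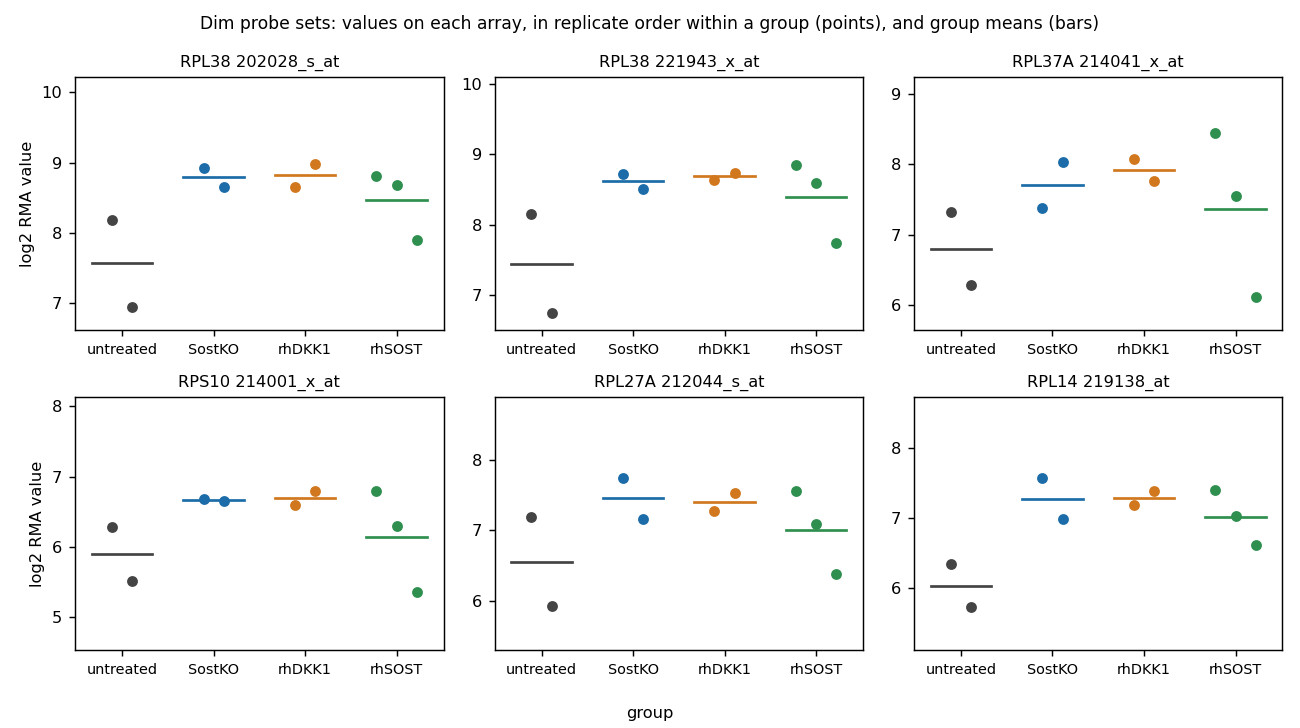
Log2 RMA value on each array (points, in replicate order within a group) with group means (bars) for 6 dim probe sets of RPL38, RPL37A, RPS10, RPL27A and RPL14. At the first 5 panels untreated array 2 and rhSOST array 3 lie more than 0.5 below the other arrays of their group, and at RPL14 both untreated arrays lie below all co-culture arrays.

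Probe sets that list a ribosomal protein symbol beside a small nucleolar RNA, pseudogene or read-through symbol were not members, and 61 of them were kept. They cover RPL4, RPL5, RPL10, RPL13, RPL13A, RPL17, RPL21, RPL23, RPL28, RPL7A, RPS2, RPS3A, RPS13, RPS20 and RPS26 among others. At the 46 above log2 12 no difference was called, and 44, 44 and 45 of them had a log2 fold change under 0.2 in size with OB SostKO, rhDKK1 and rhSOST. The lowest value was -0.33, at a probe set that lists RPL23 with OB SostKO. Among the 15 dimmer ones, a probe set that lists RPL10A and a microRNA, 229562_at, fell with OB SostKO (-0.63, limma adjusted p = 0.0484) and rhSOST (-0.54, adjusted p = 0.039), and with rhDKK1 it gave -0.51 (adjusted p = 0.077). A probe set that lists RPL5, 210034_s_at, fell with rhSOST (-0.52, adjusted p = 0.0312) at a level of 4.7. With OB SostKO it gave -0.54 (adjusted p = 0.0555) and with rhDKK1 -0.55 (adjusted p = 0.0504), both slightly larger in size, while with rhSOST the bright probe sets of RPL5 gave 0.07 and 0.08. The share of all kept probe sets called lower is not given here, so these falls stand without a background. RPL15, RPL26, RPLP0, RPS27A and RPSA were among the ribosomal protein genes not analysed here.

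The design also asks whether the co-cultures differed from each other, since the study set OB SostKO and rhDKK1 beside rhSOST. No member was called between OB SostKO and rhSOST, between rhDKK1 and rhSOST or between OB SostKO and rhDKK1 (limma, 0 of 59 each), and the background was 0%, 0% and 0% of all genes. No member had an unadjusted p under 0.05 in any of the 3, against 4.08%, 2.57% and 0.828% of all genes in the same order. The median log2 difference of the members was 0.0003 or less in size between either of these groups and rhSOST. The widest was 0.44 for OB SostKO over rhSOST, at RPL27A, where rhSOST array 3 was low. Between these groups, 57 of 59 members had a 95% interval within 0.5 of 0, and RPL27A and RPLP2 were the exceptions.

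Other genes of the ribosome and its assembly were read from lists. Of 75 mitochondrial ribosomal protein genes, 0 were higher in any comparison, against 2.07%, 2.5% and 4.87% of all genes. With rhSOST 1 was lower, MRPL44 (-0.40, limma adjusted p = 0.0264), against 2.1% of all genes. The median log2 fold change of these 75 was -0.01, -0.0049 and -0.02, with a median size of 0.09 to 0.10. Of 48 further genes with a terminal oligopyrimidine tract or a role in translation, such as EEF1A1 and TPT1, 36 were measured. In either direction 0 of these were called. At 5, 5 and 4 of them (13.9%, 13.9% and 11.1%) the unadjusted p was under 0.05, against 20.7%, 21.3% and 23.6% of all genes.

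Of 99 ribosome biogenesis genes, 90 were measured. With OB SostKO 1 fell, MDN1, the large ATPase that remodels the pre-60S particle (-0.58, limma adjusted p = 0.0493). With rhDKK1 MDN1 fell again (-0.60, adjusted p = 0.0423), as did UTP18, of the small subunit processome (-0.36, adjusted p = 0.0467). With rhSOST POLR1B, a subunit of RNA polymerase I, rose by 0.27 (adjusted p = 0.0468) and SURF6 rose by 0.32 (adjusted p = 0.0359). The 1 and 2 of 90 that fell and the 2 that rose stand beside 1.65% and 1.76% of all genes lower and 4.87% higher in the same comparisons, shares near or above those of the list. The medians were 0.01, -0.02 and 0.0032.

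Of the 30 genes that control ribosomal protein synthesis, 1 fell in each comparison, against 1.65%, 1.76% and 2.1% of all genes. That gene was MYC. It read 12.12 and 12.21 in untreated PC3 cells, 11.69 and 11.79 with OB SostKO, 11.78 and 11.70 with rhDKK1 and 11.68, 11.74 and 11.81 with rhSOST. Both untreated arrays lay above all co-culture arrays, and the log2 fold changes were -0.43, -0.42 and -0.42 (limma adjusted p = 0.0274, 0.0272 and 0.014). The remaining 29, among them MTOR, LARP1 and EIF4EBP1, did not pass, and 8 of the 30 (26.7%) had an unadjusted p under 0.05 in each comparison, near the 20.7%, 21.3% and 23.6% of all genes.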

How the data were processed

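The 9 arrays were hybridized with labelled cRNA made from PC3 total RNA. The deposited log2 values are the authors' RMA values, a method named in the submitters' processing notes. Its software and version are not given in the sources used here. Groups came from the sample labels, which describe the arrays within a group as biological replicates, and p-values measure the spread between these arrays, whose number limits the precision.

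The analysis used R 4.3.3 and limma 3.58.1. The tests left out 62 control probe sets and kept a probe set that reached the 40th percentile on 2 or more arrays. The brightest with a single symbol stood for its gene. Symbols came from the platform's annotation and were checked against RefSeq for GRCh38.p14, which changed 0 of them. Group means were fitted with lmFit and eBayes over all 9 arrays (8.66 degrees of freedom), and a gene or probe set was called at a Benjamini-Hochberg adjusted p under 0.05. The script was tested on simulated data. The array controls were compared by an exact permutation test. The members and lists were chosen with earlier results of these data known. The genes named are those with the smallest p, those with a further probe set differing by 1 or more, the stalk, RPS6 and RPL11 proteins, the paralogs, RPS24, and the highest and lowest. Other genes were named after their values were seen: RPL22, RPL37 and RPS10, list members that were called, and genes that complete a count. The alternatives were other filters, cyclic loess, the mean of the probe sets, only the groups compared, a replicate block, each array left out, other thresholds, the methods' paired t-test and a one-way analysis of variance.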

Additional observations from a re-analysis of the deposited data

How the results depend on the processing

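The 3 direct comparisons between co-cultures gave 0 members under every alternative run. Against untreated PC3 cells the counts were small and moved with the setting, and no called value changed direction. Except for the methods' tests on genes, shares of all genes or probe sets called under these alternatives are not given here. The member counts therefore stand without a background. For genes (OB SostKO, rhDKK1 and rhSOST; 0, 0 and 1 as reported), the 60th percentile filter gave 1, 1 and 1 and the mean of the kept probe sets 0, 1 and 2. An adjusted p under 0.1 gave 1, 1 and 2. For rhSOST the count was 0 with only the groups compared and with a fold of 2 added. It was 0 at an unadjusted p under 0.05 with a fold of 2, in the methods' paired t-test and in the analysis of variance. Leaving out each array gave 0 to 1 in each comparison.

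For probe sets (2, 2 and 2 as reported), the counts were 0, 0 and 1 with only the groups compared, 0, 0 and 1 with a fold of 2 added, 4, 4 and 5 at an adjusted p under 0.1, and 0, 0 and 0 in the methods' paired t-test and in the analysis of variance. An unadjusted p under 0.05 joined to a fold of 2 gave 3, 3 and 1 in the same order, all of them higher. There the rhSOST count was the smallest of the 3. Adding the several-symbol probe sets, a step taken after seeing the data, gave 3, 2 and 4, of which 1, 0 and 2 were lower. Dropping both untreated array 2 and rhSOST array 3 keeps only 1 untreated array and was chosen after seeing the data. No gene or probe set count against untreated PC3 is given for it. Leaving out each array gave 0 to 3. The replicate numbers did not pair the arrays, since deviations of same-numbered arrays correlated between -0.54 and 0.43. The fit with the replicate block, in which rhSOST array 3 carries no information, gave 0, 1 and 0 genes and 3, 2 and 3 probe sets. The cause of these changes was not tested. The median SE of a log2 fold change between OB SostKO and untreated PC3 was 0.10, and that of RPL38 202028_s_at was 0.42.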
